A study of Mus musculus with 12 samples.

Results

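Astrocyte RNA from mouse cortex at day 7 after stroke was compared with astrocyte RNA from cortex after sham surgery. The members were chosen by label: the 2 libraries of day 7 and the 2 of sham, 4 of the 12 in the study, with all 15635 genes that passed the filter on low counts out of 15774 in the files. The day 7 animals were wild-type C57BL/6J mice in which the distal middle cerebral artery was tied permanently and both carotid arteries were closed for 7 min. The sham animals were wild-type C57BL/6J mice as well, with lesions made only on the surface of the skull and no closure of an artery. No transgene, drug or mutant allele is named for any group. Astrocytes were isolated from the cerebral cortex by fluorescence-activated sorting. The marker of the sort, the age and sex of the mice, the number of animals in a library and the time after surgery at which sham tissue was taken are not given in the sources used here, so p-values measure the spread between libraries, which may be technical. The other groups, of 2 libraries each, came from mice with the same stroke at days 1, 3, 21 and 60. Of these, day 3 and day 21 serve below as the neighbours of day 7.

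Astrocytes are the glia that clear glutamate and potassium from synapses, feed neurons with lactate and wrap blood vessels. After an infarct they become reactive and form a border around the lesion. Inside that border, fibroblasts of the meninges and vessel walls lay down collagen, and microglia and macrophages clear dead tissue and myelin. The comparison with sham asks which genes of the sorted cells differ when this tissue is about a week old.

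The libraries differed in depth within each group. Day 7 replicates 1 and 2 held 16404888 and 156128922 counts, and sham replicates 1 and 2 held 16575045 and 113052833. Over the whole study replicate 2 was 6.30 to 9.63 times as deep as replicate 1. Levels are given as counts per 1000000 (CPM), each count divided by its library total after scaling by trimmed means of M values (TMM), always with replicate 1 before replicate 2. Log2 CPM correlated at 0.939 between the day 7 libraries, at 0.929 between the sham libraries, and at 0.640 to 0.700 between a day 7 and a sham library. A set of 145 genes, found after the values were seen, lay at least 4-fold higher in replicate 2 than in replicate 1 in all 6 groups, and 1 gene lay the other way. Gapdh, a glycolytic enzyme often used as a reference transcript, is in that set, with 0.537 and 42.2 CPM at day 7 and 0.956 and 155 CPM in sham. Of the 145 genes 1 was called between day 7 and sham, and the counts of called members in every gene list below are the same without them.

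Markers of other cell types moved with the groups, and the astrocyte label was checked against them before any other result. Astrocyte identity genes took 1.97% and 0.927% of all counts at day 7 and 3.08% and 2.52% in sham. This share fell less than the list's median gene, whose log2 fold change of day 7 over sham was -3.00. The day 7 share therefore rests mostly on members that fell less than that or rose. Aldoc, the astrocyte form of aldolase, and Slc1a3, a glutamate transporter, were present in all 4 libraries: Aldoc had 216 and 218 CPM at day 7 against 5275 and 5248 CPM in sham, and Slc1a3 had 105 and 85.4 CPM at day 7 against 603 and 513 CPM in sham. The 16 fibroblast and meningeal markers took 8.6% and 20.2% of counts at day 7, against 0.0167% and 0.015% in sham. The 15 markers of activated phagocytes took 0.791% and 0.548% at day 7 and 0.0151% and 0.0216% in sham, and the 17 leukocyte markers 0.411% and 0.39% at day 7 and 0.00343% and 0.0242% in sham. Neuron markers went the other way, with 0.0465% and 0.0279% at day 7 against 1.54% and 1.86% in sham. Among the defining markers of these cell types only Cd3e, a chain of the T cell receptor complex, had 0 counts in both libraries of a group, sham. The day 7 RNA therefore holds more fibroblast marker RNA than astrocyte identity RNA by share of counts, which goes against a label of astrocytes alone. Sham RNA was not of astrocyte genes alone either, as the neuron marker shares above show. Mbp, a myelin gene of oligodendrocytes, had 9070 and 8610 CPM in sham, above Aldoc in the same libraries. Most of the fibroblast share was Col3a1, at 3.24% and 8.91% of day 7 counts, Col1a1, at 2.39% and 5.91%, and Col1a2, at 2.02% and 4.62%. The order of the fibroblast and astrocyte shares rests on these collagens. The share of transcripts from other sorted cells in each result below was not tested.

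**Figure D1:**
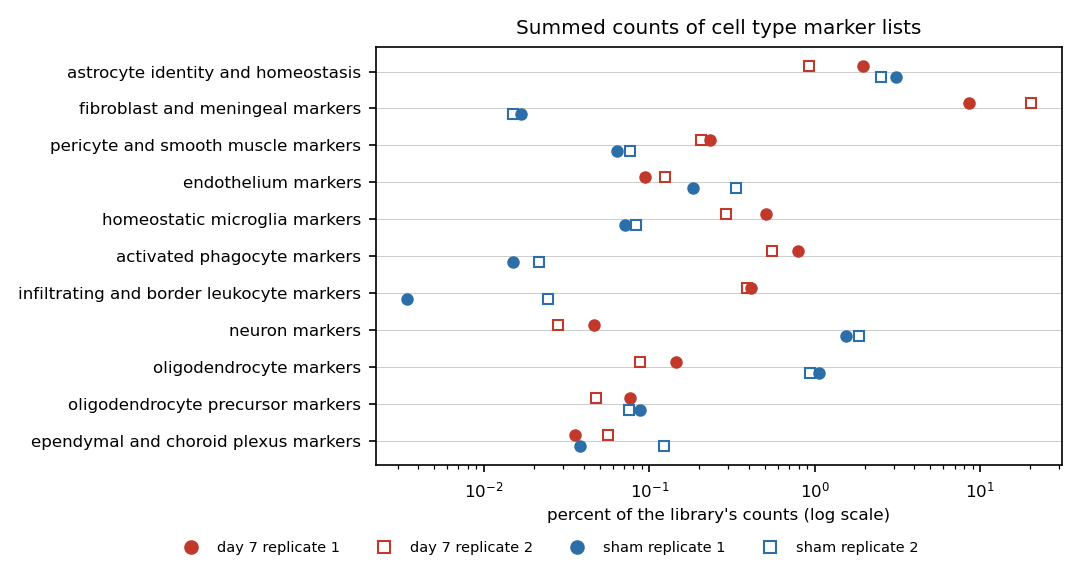
Percent of all counts, on a log axis, in the marker genes of astrocytes and of other cell types, with a point for each day 7 and each sham library. Fibroblast markers take 8.60% and 20.2% of counts at day 7 against 0.0167% and 0.0150% in sham, while neuron markers take 0.0465% and 0.0279% at day 7 against 1.54% and 1.86% in sham.

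A gene was called when its adjusted p was under 0.05 in edgeR's quasi-likelihood test, with Benjamini-Hochberg adjustment over all 15635 genes. The fit used all 12 libraries, and each fold change is log2 of day 7 over sham ± its standard error, with n = 2 libraries in each group. Of the genes tested, 3627 rose at day 7, which is 23.2%, and 3092 fell, which is 19.8%. These shares are the background for the counts of list members below. Of the calls 2284 were rises and 2196 were falls past 4-fold, and 827 rises and 999 falls were past 16-fold. Without regard to any test, both day 7 libraries lay above both sham libraries in 40.4% of genes and below both in 36%. The median log2 fold change of all genes was 0.13. With DESeq2 size factors it moved down by 0.14 and rises made up 49.1% of calls in place of 54.0%, and with plain library totals it moved down by 0.26 and rises made up 45.3%. Without day 7 replicate 2 there were 4476 calls in place of 6719.

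The collagens of scar tissue rose together. Of 22 fibrillar, beaded and network collagens 20 rose and 0 fell, with a median log2 fold change of 8.59, and all 22 had both day 7 libraries above both sham libraries. The list took 9.59% and 22.4% of all counts at day 7 and 0.0126% and 0.0226% in sham. Col4a3 and Col4a4, network chains known from kidney basement membrane, were the members that did not pass. Fibroblast markers, of which all 16 rose, moved with this list and share 3 genes with those described next.

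Col1a1 encodes the main chain of type I collagen, the fibre of bone, skin and scar (GRCm38 chr11:94936224-94953042, plus strand). It had 26348 and 85889 CPM at day 7, against 7.35 and 5.02 CPM in sham. Its log2 fold change was 13.15 ± 2.02 (adjusted p = 0.000698). The day 7 libraries lay far above the sham libraries and also stood apart from each other, replicate 2 being the higher. Replicate 2 was the higher at every other time after stroke as well, but not in sham. Col1a2, the second chain of the same fibre (chr6:4504814-4541544, plus strand), had 22292 and 67031 CPM at day 7 and 12.4 and 21.3 CPM in sham, a log2 fold change of 11.37 ± 1.47 (adjusted p = 0.0003). Col3a1, the fibrillar collagen laid down early in wound repair (chr1:45311538-45349706, plus strand), had 35731 and 129462 CPM at day 7 and 15.4 and 14.8 CPM in sham, a log2 fold change of 12.42 ± 1.58 (adjusted p = 0.00028). The type I and type III chains thus had the same order of libraries, with day 7 replicate 2 above replicate 1 and both above sham. Col6a3, a beaded-filament collagen that links cells to fibres (chr1:90765923-90843971, minus strand), was even between the day 7 libraries, at 649.7 and 770.0 CPM, against 0.0597 and 0.135 CPM in sham. Its log2 fold change was 12.59 ± 0.67 (adjusted p = 3.07e-05), and its 4 values did not overlap between groups.

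The sequence before the start of Col1a2 is shown because the gene carries one of the main changes, and CCAAT in capitals marks a sequence element by which many collagen genes are known to be transcribed. The 150 bases end just before the RefSeq start, GRCm38.p6 chr6:4505468-4505617, plus strand, 5′ to 3′. GENCODE, the source of the gene interval given above, starts Col1a2 further upstream, at chr6:4504814, so the stretch lies inside that interval.
Col1a2: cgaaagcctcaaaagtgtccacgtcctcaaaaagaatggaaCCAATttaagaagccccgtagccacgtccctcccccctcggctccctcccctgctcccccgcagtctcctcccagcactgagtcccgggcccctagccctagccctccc
The CCAAT match, searched on both strands, begins 109 bases before the start. Within 250 bases upstream, 8 of the 17 collagens with a RefSeq promoter entry held CCAAT, which is 47.1%, against 39.8% of the 11693 tested genes with an entry. A match is a description of letters and not of a bound factor.

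**Figure D2:**
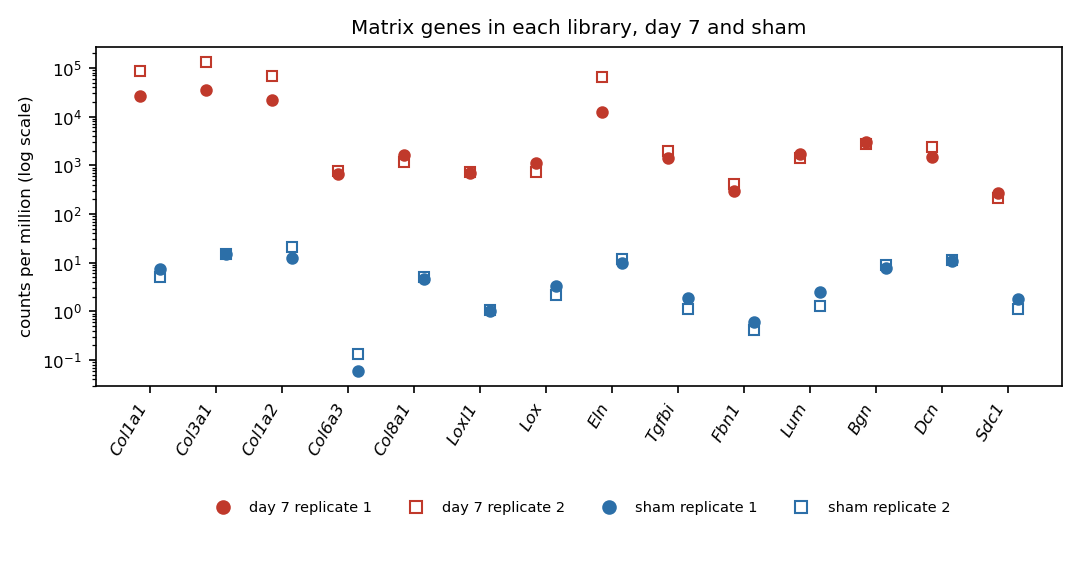
CPM, on a log axis, of 14 matrix genes, with a point for each library of day 7 and sham. For every gene shown both day 7 points lie above both sham points, as for Col1a1, at 26348 and 85889 CPM at day 7 against 7.35 and 5.02 CPM in sham.

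The enzymes that fold, trim and cross-link collagen rose with the chains. Of 22 collagen processing genes 19 rose and 0 fell, with a median log2 fold change of 4.82. Loxl1, a lysyl oxidase that cross-links elastin, had 698 and 713 CPM at day 7 and 1.02 and 1.09 CPM in sham, a log2 fold change of 9.38 ± 0.60 (adjusted p = 3.07e-05). Lox, the founding member of that enzyme family, had 1126 and 715 CPM at day 7 and 3.29 and 2.15 CPM in sham (log2 fold change 8.41 ± 0.66, adjusted p = 3.91e-05). In both genes the groups were far apart and the replicates close. Loxl2, which cross-links type IV collagen, was less even, with 243 and 1309.8 CPM at day 7 against 1.49 and 1.76 CPM in sham (log2 fold change 8.89 ± 1.73, adjusted p = 0.00241). For Loxl2 replicate 2 was the higher at every time after stroke. Adamts2, the protease that removes the amino-terminal propeptide of procollagen, had 459.7 and 638 CPM at day 7 and 1.79 and 2.6 CPM in sham (log2 fold change 7.95 ± 0.66, adjusted p = 4.56e-05).

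Matrix glycoproteins gave 27 rises and 0 falls among 28 members, with a median log2 fold change of 6.36. Lama5, a laminin chain of basement membranes, was the member that did not pass. Ltbp2, a microfibril protein related to the proteins that store latent TGF-beta, had 356 and 466 CPM at day 7, against 0.0597 and 0 CPM in sham. The sham value rests on 1 count, and the ratio of day 7 to sham was 54594 with an exact 95% counting interval of 9798 to 2156370.0 (adjusted p = 3.59e-05). Eln, the elastic protein of artery walls and skin, had 12243 and 63859.8 CPM at day 7 and 9.68 and 12.1 CPM in sham, a log2 fold change of 11.77 ± 2.08 (adjusted p = 0.00149). As with Col1a1, day 7 replicate 2 was well above replicate 1, and replicate 2 was the higher at every other time after stroke. Tgfbi, an adhesive protein induced by TGF-beta, had 1383 and 2010.2 CPM at day 7 and 1.91 and 1.13 CPM in sham (log2 fold change 10.15 ± 0.73, adjusted p = 3.59e-05). Fbn1, the fibrillin of elastic microfibrils, had 297 and 404 CPM at day 7 and 0.597 and 0.414 CPM in sham (log2 fold change 9.48 ± 0.64, adjusted p = 3.07e-05). Tgfbi and Fbn1 were higher in each day 7 library than in either sham library.

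Of 24 proteoglycan and hyaluronan genes 16 rose and 6 fell, with a median log2 fold change of 3.17. The members that fell, named after their values were seen, were Hapln1, Hapln4, Bcan, Ncan, Cspg5 and Ptprz1. Of these, Hapln1, Hapln4, Bcan and Ncan belong to the hyaluronan-based matrix of brain. Lum, lumican, a small proteoglycan that spaces collagen fibrils, had 1727 and 1407 CPM at day 7 and 2.51 and 1.32 CPM in sham, a log2 fold change of 9.70 ± 0.73 (adjusted p = 3.59e-05). Bgn, biglycan, had 3069.7 and 2749 CPM at day 7 and 7.7 and 8.91 CPM in sham (log2 fold change 8.45 ± 0.52, adjusted p = 3.07e-05), and neither gene overlapped between groups. Dcn, decorin, a fibroblast marker that binds collagen and TGF-beta, had 1501 and 2327 CPM at day 7 and 11 and 11.4 CPM in sham (log2 fold change 7.41 ± 0.63, adjusted p = 4.59e-05). Sdc1, a cell-surface syndecan, had 266 and 212 CPM at day 7 and 1.79 and 1.14 CPM in sham (log2 fold change 7.37 ± 0.57, adjusted p = 3.91e-05).

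Enzymes that cut matrix rose beside the matrix itself. Of 26 proteases and inhibitors 22 rose and 1 fell, with a median log2 fold change of 5.65. The member that fell was Timp4, a metalloprotease inhibitor found in brain and heart, and Timp1, the inhibitor known from injured tissue, did not pass. Mmp13, a collagenase of bone and cartilage, had 882 and 1001 CPM at day 7 and 0.358 and 0 CPM in sham (log2 fold change 13.11 ± 1.80, adjusted p = 0.000402). Mmp3, stromelysin, which activates other metalloproteases, had 578 and 1380.0 CPM at day 7 and 0.538 and 0.0385 CPM in sham (log2 fold change 12.07 ± 1.55, adjusted p = 0.000297). Both genes were close to 0 in sham and far above it in each day 7 library. Mmp12, the elastase of macrophages, had 15.2 and 17.8 CPM at day 7 and 0 counts in both sham libraries, so it was at least 159-fold higher against a floor of 3 counts per library (adjusted p = 9.26e-05). Mmp10, a second stromelysin, had 11.2 and 205 CPM at day 7 and 0 counts in sham, at least 1038-fold higher (adjusted p = 0.0318). The Mmp10 value came mostly from day 7 replicate 2, and leaving out that library or either sham library ended its call. Replicate 2 was also the higher for Mmp10 at every other time after stroke, as at day 21, with 5.21 and 441 CPM. Exons of Mmp12 overlap those of Mmp1b on the other strand, and the strand setting of the counting is not given in the sources used here.

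The starts of these 4 metalloprotease genes lie in a cluster on chromosome 9. Their upstream sequences are shown because AP-1, the Fos and Jun dimer, is known to drive metalloprotease genes. Each is 150 bases on the plus strand of GRCm38.p6 from RefSeq, ending just before the start, with an AP-1 site (TGAGTCA or TGACTCA) in capitals: Mmp13 at chr9:7272364-7272513, Mmp3 at chr9:7445672-7445821, Mmp10 at chr9:7502192-7502341 and Mmp12 at chr9:7344247-7344396, for which the table has 2 entries and the lower-numbered start was taken.
Mmp13: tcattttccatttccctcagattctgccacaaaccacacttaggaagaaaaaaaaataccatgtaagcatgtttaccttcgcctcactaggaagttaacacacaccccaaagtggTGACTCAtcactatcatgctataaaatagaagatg
Mmp3: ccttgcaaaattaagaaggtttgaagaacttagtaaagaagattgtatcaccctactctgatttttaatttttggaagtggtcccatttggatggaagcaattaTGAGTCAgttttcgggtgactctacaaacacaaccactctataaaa
Mmp10: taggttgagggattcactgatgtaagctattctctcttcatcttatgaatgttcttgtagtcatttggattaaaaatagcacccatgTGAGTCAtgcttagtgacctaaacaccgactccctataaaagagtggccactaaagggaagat
Mmp12: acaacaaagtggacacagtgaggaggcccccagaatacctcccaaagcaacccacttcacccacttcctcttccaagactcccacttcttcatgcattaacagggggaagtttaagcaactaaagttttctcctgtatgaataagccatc
The match begins 35 bases before the start in Mmp13, 46 bases before it in Mmp3 and 63 bases before it in Mmp10, and these letters are not in the window shown for Mmp12. Within 250 bases upstream, on either strand, an AP-1 site was found in 5 of the 18 genes of the protease list with an entry, which is 27.8%, against 4.27% of the 11693 tested genes with an entry. The 7 letters and their reverse complement are the same site. Here too a match describes letters and not a bound factor, and a role of AP-1 in these rises was not tested.

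Signals that drive connective tissue rose in part. Of 25 genes of TGF-beta, BMP and connective tissue signalling 14 rose and 0 fell, with a median log2 fold change of 1.93. Tgfb1, the ligand that induces collagen in fibroblasts, had 79.9 and 61.5 CPM at day 7 and 4.42 and 4.17 CPM in sham (log2 fold change 4.04 ± 0.39, adjusted p = 7.68e-05). Ltbp3, a protein that holds latent TGF-beta in the matrix, had 705 and 981 CPM at day 7 and 9.44 and 24.4 CPM in sham (log2 fold change 5.63 ± 0.65, adjusted p = 0.000175). Ctgf and Wisp1, secreted proteins of the CCN family, had log2 fold changes of 4.81 ± 0.60 and 4.37 ± 0.53. Ctgf had 463 and 381 CPM at day 7 and 16.9 and 13.2 CPM in sham, and Wisp1 had 78.1 and 62.7 CPM at day 7 and 4.0 and 2.84 CPM in sham (adjusted p = 0.000251 for Ctgf and 0.00022 for Wisp1). All 4 genes were without overlap between groups.

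Among 26 growth factors and their binding proteins 15 rose and 3 fell, with a median log2 fold change of 1.80. The insulin-like growth factor family led the rises. Igf1, a growth factor made by phagocytes and fibroblasts, had 943 and 522 CPM at day 7 and 2.69 and 1.15 CPM in sham (log2 fold change 8.61 ± 0.90, adjusted p = 0.00011). Igf2, the fetal form that meninges keep expressing, had 1528 and 1412 CPM at day 7 and 8.54 and 4.97 CPM in sham (log2 fold change 7.77 ± 0.79, adjusted p = 9.47e-05), and it shares exons with Gm49394 on the same strand. Their binding proteins Igfbp4 and Igfbp5 rose too. Igfbp4 had 2397 and 1704 CPM at day 7 and 101 and 60.3 CPM in sham (log2 fold change 4.67 ± 0.53), and Igfbp5 had 1790.1 and 975 CPM at day 7 and 55.9 and 30.0 CPM in sham (log2 fold change 5.01 ± 0.68, adjusted p = 0.000165 for Igfbp4 and 0.000391 for Igfbp5). The members that fell, named after their values were seen, were Vegfb, Fgf1 and Pdgfa, growth factors for vessels, neurons and oligodendrocyte precursors, and 1 member fell without day 7 replicate 1.

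Transcription factors of mesenchyme gave 17 rises and 0 falls among 20 members, with a median log2 fold change of 4.69. Snai1, a repressor of epithelial genes, had 18.3 and 13 CPM at day 7 and 0 and 0.0577 CPM in sham (log2 fold change 8.41 ± 0.87, adjusted p = 0.000104). Foxd1, a factor of kidney stroma and meninges, had 327 and 199 CPM at day 7 and 2.87 and 2.4 CPM in sham (log2 fold change 6.65 ± 0.61, adjusted p = 5.85e-05). Six2, a homeobox factor of kidney and skull precursors, had 116 and 77.2 CPM at day 7 and 1.25 and 0.327 CPM in sham (log2 fold change 7.08 ± 0.72, adjusted p = 9.55e-05). In all 3 genes both day 7 libraries lay above both sham libraries.

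Fibroblast and meningeal markers all rose, 16 of 16, with a median log2 fold change of 7.00, or 6.70 with the members at 0 in sham entered at their bound. In bulk RNA, more cells of a type and more RNA per cell cannot be told apart, nor fewer cells and less RNA per cell. Besides the collagens, Dpep1, a membrane dipeptidase of fibroblasts, had 10.0 and 13.3 CPM at day 7 and 0 counts in both sham libraries, at least 112-fold higher (adjusted p = 4.59e-05). Pdgfra, the receptor shared by fibroblasts and oligodendrocyte precursors, had 545 and 524 CPM at day 7 and 12.2 and 20.8 CPM in sham (log2 fold change 5.01 ± 0.51, adjusted p = 9.57e-05). The groups did not overlap in either gene.

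Markers of pericytes and smooth muscle were divided, with 5 rises and 4 falls among 15, while 23.2% of all genes rose and 19.8% fell. Their median log2 fold change was 0.71, and fewer of them fell without either day 7 library or without sham replicate 2. Pdgfrb, a receptor of pericytes and also of fibroblasts, had 1665 and 1974 CPM at day 7 and 16.1 and 25.8 CPM in sham (log2 fold change 6.44 ± 0.52, adjusted p = 3.99e-05). Anpep, a membrane aminopeptidase, had 103 and 115 CPM at day 7 and 0.478 and 0.491 CPM in sham (log2 fold change 7.80 ± 0.62, adjusted p = 3.91e-05). Abcc9, a potassium channel subunit, had 27.3 and 30.2 CPM at day 7 and 1.43 and 1.38 CPM in sham, and Cspg4, the NG2 proteoglycan, had 105 and 69.4 CPM at day 7 and 8.54 and 11.1 CPM in sham, with log2 fold changes of 4.36 ± 0.80 and 3.15 ± 0.41 (adjusted p = 0.00176 and 0.000303). The members that fell were contractile genes of smooth muscle, Acta2, Tagln, Myh11 and Cnn1. Acta2, smooth muscle actin, had 62.8 and 69.2 CPM at day 7 and 272 and 347 CPM in sham (log2 fold change -2.23 ± 0.31, adjusted p = 0.000431). Rgs5 and Kcnj8, which define pericytes, did not pass: Rgs5 had 48.8 and 28.9 CPM at day 7 and 40.4 and 27.1 CPM in sham, and Kcnj8 had 12.3 and 10.6 CPM at day 7 and 8.0 and 3.1 CPM in sham.

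Of 16 endothelial markers 1 rose and 0 fell, with a median log2 fold change of -0.30, while 5 fell by DESeq2's Wald test and 5 with only the 4 libraries compared in the fit. The member that rose was Eng, a TGF-beta co-receptor, with 166 and 277 CPM at day 7 and 39.7 and 77.2 CPM in sham (log2 fold change 1.92 ± 0.48, adjusted p = 0.00954); its call ended without day 7 replicate 2 or without sham replicate 1, with adjusted p of up to 0.0817. Pecam1, an adhesion protein of endothelium, had 49.1 and 64.9 CPM at day 7 and 57.9 and 93.6 CPM in sham, and Cldn5, the claudin of the blood-brain barrier, had 144 and 80.1 CPM at day 7 and 538 and 272 CPM in sham, with adjusted p = 0.614 and 0.129 in edgeR. Cldn5 passed by DESeq2's Wald test (adjusted p = 0.0303) and with only the 4 libraries compared (adjusted p = 0.0172). Cdh5, the cadherin of endothelium, had 22.8 and 22.7 CPM at day 7 and 9.44 and 7.84 CPM in sham (adjusted p = 0.103, or 0.0233 with only the 4 libraries compared). Slco1a4, an organic anion transporter of brain vessels, had 75.1 and 196 CPM at day 7 and 170.0 and 941 CPM in sham (adjusted p = 0.164, or 0.0421 by DESeq2's Wald test). Ly6c1, which shares reads with the near-identical Ly6c2 in a way the counting may split, had 54.6 and 227 CPM at day 7 and 227 and 916 CPM in sham (adjusted p = 0.145), and passed by DESeq2's Wald test. In Ly6c1 and Slco1a4 replicate 2 was the higher library in both groups. Choroid plexus and ependymal markers gave 1 rise among 12 and a median log2 fold change of 0.15, which turned to -0.13 with plain library totals. The rises numbered 2 without sham replicate 2, and 0 fell in edgeR against 3 by DESeq2's Wald test and 4 with only the 4 libraries compared. The member that rose was Aqp1, a water channel of choroid plexus, with 24.7 and 13.6 CPM at day 7 and 0 and 0.904 CPM in sham (log2 fold change 5.17 ± 1.06, adjusted p = 0.00322). Ttr, the thyroid hormone carrier that defines choroid plexus, had 105 and 205 CPM at day 7 and 281 and 632 CPM in sham, and did not pass (adjusted p = 0.211, or 0.0387 with only the 4 libraries compared). Folr1, the folate receptor of choroid plexus, had 5.51 and 6.37 CPM at day 7 and 2.27 and 8.03 CPM in sham (adjusted p = 0.804). Enpp2, which makes lysophosphatidic acid, overlapped between groups, with 212 and 545 CPM at day 7 and 63 and 635 CPM in sham, and passed only without sham replicate 2 (adjusted p = 0.0419). Kl, a co-receptor for a fibroblast growth factor, had 17.1 and 15.1 CPM at day 7 and 2.75 and 15 CPM in sham and did not pass (adjusted p = 0.473).

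Genes of debris-clearing phagocytes rose nearly throughout. Of 15 markers of activated phagocytes 14 rose and 0 fell, with a median log2 fold change of 7.60, or 7.45 with members at 0 in sham entered at their bound. Gpnmb, a glycoprotein of lipid-laden macrophages, had 6056 and 5355 CPM at day 7 and 2.09 and 1.28 CPM in sham (log2 fold change 11.74 ± 1.34, adjusted p = 0.000168). Cd5l, a scavenger protein of macrophages, had 69 and 38.7 CPM at day 7 and 0 counts in both sham libraries, at least 518-fold higher (adjusted p = 3.99e-05). Cst7, a cathepsin inhibitor of disease-associated microglia, had 49.5 and 30.0 CPM at day 7 and 0 and 0.0192 CPM in sham. Its sham value rests on 2 counts, and the ratio was 1955 with an exact 95% counting interval of 541 to 16147 (adjusted p = 6.68e-05). For these genes sham was at or close to 0 and both day 7 libraries were far above it.

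Homeostatic microglia markers rose in part, 8 of 14 with 0 falls and a median log2 fold change of 1.73, and the count was 4 without sham replicate 1 and 5 without day 7 replicate 1. Olfml3, a matrix protein of microglia, had 824 and 531 CPM at day 7 and 32 and 27.2 CPM in sham (log2 fold change 4.52 ± 0.39, adjusted p = 4.82e-05). Fcrls, a receptor of resident microglia, had 724 and 439 CPM at day 7 and 43.6 and 43.2 CPM in sham (log2 fold change 3.75 ± 0.40, adjusted p = 0.000127). Tyrobp, the signalling adaptor of microglial receptors, had 219.6 and 191 CPM at day 7 and 14.3 and 20.5 CPM in sham, and Tmem119, a membrane protein that marks microglia, had 637 and 309.7 CPM at day 7 and 60.6 and 35.2 CPM in sham, with log2 fold changes of 3.56 ± 0.47 and 3.31 ± 0.60 (adjusted p = 0.000338 and 0.00171). All 4 genes were without overlap. P2ry12, the purinergic receptor of resting microglia, had 90.9 and 34.9 CPM at day 7 and 80.5 and 62.4 CPM in sham, values that overlapped (adjusted p = 0.802). Cx3cr1, the fractalkine receptor, had 405 and 101 CPM at day 7 and 57.9 and 41.6 CPM in sham (log2 fold change 2.35 ± 0.71, adjusted p = 0.0224), and its call ended without day 7 replicate 1, without either sham library and with plain library totals, with adjusted p of up to 0.261 when a library was left out.

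Of 17 leukocyte markers 6 rose and 1 fell, with a median log2 fold change of 4.45, or 4.0 with members at 0 in sham at their bound, and 4 rose and 2 fell without sham replicate 2. None fell (0 of 17) without either day 7 library or without sham replicate 1. Lyz2, lysozyme of macrophages and neutrophils, had 4281 and 5467 CPM at day 7 and 13.1 and 13.6 CPM in sham (log2 fold change 8.51 ± 0.73, adjusted p = 4.59e-05). F13a1, a transglutaminase of border macrophages, had 151 and 78.5 CPM at day 7 and 0.418 and 0.847 CPM in sham (log2 fold change 7.42 ± 1.24, adjusted p = 0.00107). Plac8, expressed in monocytes, had 9.14 and 11.4 CPM at day 7 and 0 and 0.115 CPM in sham (log2 fold change 6.89 ± 0.73, adjusted p = 0.000114). Ptprc, CD45, the surface phosphatase of leukocytes, had 54.5 and 46.3 CPM at day 7 and 2.09 and 1.98 CPM in sham (log2 fold change 4.63 ± 0.77, adjusted p = 0.00109). Day 7 and sham did not overlap in these 4 genes. The neutrophil genes S100a8 and S100a9 were low in all 4 libraries: S100a8 had 0.873 and 0.605 CPM at day 7 and 4.78 and 0.5 CPM in sham and did not pass, and S100a9, the member that fell, had 0.537 and 0.846 CPM at day 7 and 5.91 and 1.04 CPM in sham (log2 fold change -2.25 ± 0.79, adjusted p = 0.0423). Ly6c2, a monocyte surface protein, was high in replicate 2 of each group, with 1.07 and 33 CPM at day 7 and 0.657 and 238 CPM in sham (adjusted p = 0.455). Cd3e had 0.0672 and 0.0837 CPM at day 7, under the mean floor of 0.115 CPM, and 0 in sham.

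Engulfment and lysosomal genes gave 20 rises and 1 fall among 24, with a median log2 fold change of 3.84. Ctsd, the lysosomal protease cathepsin D, had 22131 and 18300.0 CPM at day 7 and 395 and 423 CPM in sham (log2 fold change 5.63 ± 0.45, adjusted p = 3.99e-05), with reads that can be shared with Gm49369 on the same strand. The scavenger receptor Msr1 had 68.1 and 45.2 CPM at day 7 and 0.0597 and 0.519 CPM in sham (log2 fold change 7.32 ± 0.89, adjusted p = 0.000228). Cd36, a receptor for oxidised lipids, had 128 and 116 CPM at day 7 and 2.63 and 0.558 CPM in sham (log2 fold change 6.34 ± 0.74, adjusted p = 0.000186). Abca1, which exports cholesterol from loaded cells, had 361 and 334 CPM at day 7 and 10.9 and 10.4 CPM in sham (log2 fold change 5.03 ± 0.50, adjusted p = 8.9e-05). No day 7 library of these 4 genes lay in the sham range. Tyro3, a receptor for dying cells that neurons and glia carry, was the member that fell, and Mertk and Mfge8, a receptor and a bridging protein by which astrocytes engulf, did not pass.

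Cytokines and chemokines gave 22 rises and 1 fall among 29, with a median log2 fold change of 4.15, or 3.73 with members at 0 at their bound. Spp1, osteopontin, a secreted phosphoprotein of bone and of phagocytes, had 29070.5 and 28423 CPM at day 7 and 25.6 and 12.8 CPM in sham (log2 fold change 10.55 ± 0.68, adjusted p = 3.07e-05). The day 7 libraries were close to each other and far above sham. Cxcl13, the B cell chemokine, had 11.3 and 10.2 CPM at day 7 and 0.0597 and 0 CPM in sham; the sham value rests on 1 count, and the ratio was 1243 with an exact 95% counting interval of 223 to 49150.5 (adjusted p = 0.000111). Ccl7, a monocyte chemokine, had 30.2 and 23.9 CPM at day 7 and 0.119 and 0.0866 CPM in sham (log2 fold change 8.12 ± 0.81, adjusted p = 8.89e-05). Tnf, tumor necrosis factor, had 52.3 and 20.8 CPM at day 7 and 0.299 and 0.346 CPM in sham (log2 fold change 6.79 ± 0.68, adjusted p = 9.28e-05). Cxcl14, a chemokine of resting epithelium and brain, was the member that fell.

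The regulators of JAK-STAT3 and NF-kB signalling, through which such cytokines act, gave 19 rises and 0 falls among 22, with a median log2 fold change of 2.90. Osmr, the oncostatin M receptor, had 162 and 165 CPM at day 7 and 6.57 and 7.11 CPM in sham (log2 fold change 4.58 ± 0.43, adjusted p = 7.03e-05). Socs3, the feedback inhibitor induced by STAT3, had 415 and 194 CPM at day 7 and 9.91 and 5.73 CPM in sham (log2 fold change 5.29 ± 0.86, adjusted p = 0.000939). The NF-kB regulators Nfkbiz and Tnfaip3 lay above sham as well. Nfkbiz had 160.2 and 140.0 CPM at day 7 and 1.85 and 4.46 CPM in sham (log2 fold change 5.55 ± 0.60, adjusted p = 0.000134), and Tnfaip3 had 179.5 and 77.3 CPM at day 7 and 1.49 and 4.65 CPM in sham (log2 fold change 5.36 ± 0.87, adjusted p = 0.000914).

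Interferon-response genes gave 22 rises and 0 falls among 26, with a median log2 fold change of 2.55. Irf8, a transcription factor of myeloid cells, had 173 and 115 CPM at day 7 and 10.1 and 9.73 CPM in sham (log2 fold change 3.86 ± 0.36, adjusted p = 6.17e-05). The antiviral genes of the oligoadenylate synthetase family rose by differing amounts. Oas2 had 15.7 and 18.2 CPM at day 7 and 0 and 1.13 CPM in sham, and Oasl2 had 154 and 148 CPM at day 7 and 15.3 and 10.4 CPM in sham (log2 fold change 4.74 ± 1.11 with adjusted p = 0.00655 for Oas2, and 3.56 ± 0.37 with adjusted p = 0.000107 for Oasl2). Oas1a had 24 and 133 CPM at day 7 and 4.0 and 9.05 CPM in sham (log2 fold change 3.58 ± 1.07, adjusted p = 0.021), and its call ended without day 7 replicate 2 or without either sham library, with adjusted p of up to 0.195.

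Antigen presentation genes gave 16 rises and 0 falls among 19, with a median log2 fold change of 2.89. The class II chains H2-Ab1, H2-Aa and H2-Eb1, which present peptide to helper T cells, led the list. H2-Ab1 had 65.8 and 51.3 CPM at day 7 and 0.299 and 0.741 CPM in sham (log2 fold change 6.71 ± 0.87, adjusted p = 0.000307). H2-Aa had 28.7 and 24.7 CPM at day 7 and 0.597 and 0.375 CPM in sham, and H2-Eb1 had 28.9 and 23.8 CPM at day 7 and 0.418 and 0.712 CPM in sham (log2 fold change 5.85 ± 0.87 with adjusted p = 0.000596 for H2-Aa, and 5.47 ± 0.78 with adjusted p = 0.000502 for H2-Eb1). Cd74, the invariant chain that escorts class II, had 149 and 171 CPM at day 7 and 3.76 and 2.44 CPM in sham (log2 fold change 5.69 ± 0.60, adjusted p = 0.000114). The markers of activated phagocytes and leukocytes given above moved with these immune lists.

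Complement components and regulators gave 14 rises and 0 falls among 19, with a median log2 fold change of 4.66. Serping1, the C1 inhibitor, had 1093 and 1361 CPM at day 7 and 19.5 and 18.4 CPM in sham (log2 fold change 6.02 ± 0.51, adjusted p = 4.59e-05). C3ar1, the receptor for the C3a fragment on myeloid cells, had 202 and 67 CPM at day 7 and 2.09 and 2.31 CPM in sham (log2 fold change 5.93 ± 0.72, adjusted p = 0.000223). Cfi, a protease that inactivates C3b, had 8.19 and 17.3 CPM at day 7 and 0 counts in sham, at least 123-fold higher (adjusted p = 0.000147). C3 itself, the central component, had 26 and 38.4 CPM at day 7 and 0.538 and 0.462 CPM in sham.

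Genes of reactive astrocytes rose in part. Of 13 pan-reactive genes 8 rose and 0 fell, with a median log2 fold change of 3.88, and of the 12 A1-associated and 12 A2-associated genes, the sets tied to inflammatory and ischemic injury in mouse, 8 rose and 0 fell in each, with medians of 2.37 and 3.46. Gfap, the intermediate filament that defines reactive astrocytes, had 556 and 359 CPM at day 7 and 161 and 175 CPM in sham and did not pass, with log2 fold change 1.44 ± 0.62 (adjusted p = 0.0865). Steap4, a metal reductase of the pan-reactive set, had 61.1 and 40.0 CPM at day 7 and 1.25 and 0.24 CPM in sham (log2 fold change 6.21 ± 0.84, adjusted p = 0.000372). Aspg, an asparaginase of the same set, had 31.1 and 51.3 CPM at day 7 and 2.39 and 1.55 CPM in sham (log2 fold change 4.40 ± 0.71, adjusted p = 0.000921). Cd44, the hyaluronan receptor that fibroblasts and leukocytes also carry, had 74.2 and 62 CPM at day 7 and 1.37 and 1.68 CPM in sham (log2 fold change 5.46 ± 0.44).

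In the A1-associated set, Fbln5, an elastic-fibre protein, had 122 and 145 CPM at day 7 and 4.78 and 6.45 CPM in sham (log2 fold change 4.56 ± 0.35, adjusted p = 3.91e-05). Iigp1, an interferon-induced GTPase, had 59.7 and 35.9 CPM at day 7 and 5.73 and 7.31 CPM in sham (log2 fold change 2.87 ± 0.50, adjusted p = 0.0013). Both were higher in each day 7 library than in either sham library. In the A2-associated set, Emp1, an epithelial membrane protein, had 425 and 204 CPM at day 7 and 1.73 and 0.366 CPM in sham (log2 fold change 8.34 ± 1.04, adjusted p = 0.000258). Sphk1, which makes sphingosine 1-phosphate, had 42.5 and 61.8 CPM at day 7 and 2.27 and 1.56 CPM in sham (log2 fold change 4.79 ± 0.51, adjusted p = 0.000115). Cd14, the co-receptor for bacterial lipopolysaccharide that macrophages carry, had 254 and 107 CPM at day 7 and 9.62 and 4.89 CPM in sham, and B3gnt5, a glycolipid enzyme, had 18.3 and 10.9 CPM at day 7 and 1.02 and 0.645 CPM in sham, with log2 fold changes of 4.65 ± 0.83 and 4.17 ± 0.60 (adjusted p = 0.0016 and 0.000493). None of the 4 A2-associated genes overlapped between groups.

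Of 25 cytoskeletal genes of reactive and migrating cells 12 rose and 1 fell, with a median log2 fold change of 1.18, and 0 fell without either day 7 library or without sham replicate 1. Flnc, a filamin that cross-links actin, had 64.4 and 95.2 CPM at day 7 and 0.478 and 3.28 CPM in sham (log2 fold change 5.34 ± 0.77, adjusted p = 0.000502). Tubb6, a beta-tubulin, had 165 and 126 CPM at day 7 and 4.54 and 4.18 CPM in sham (log2 fold change 5.06 ± 0.56, adjusted p = 0.000142). Lmna, the nuclear lamin of stiff tissues, had 827 and 1035 CPM at day 7 and 72.7 and 84.1 CPM in sham, and Myh9, a non-muscle myosin, had 189.6 and 193 CPM at day 7 and 12.2 and 25.5 CPM in sham, with log2 fold changes of 3.57 ± 0.39 and 3.34 ± 0.47 (adjusted p = 0.00014 and 0.000478). The 4 genes were separate between groups.

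Genes that define astrocytes fell. Of 30 identity and homeostasis genes 20 fell and 3 rose, with a median log2 fold change of -3.00. The 3 that rose, the connexins Gja1 and Gjb6 and the Hedgehog-pathway factor Gli3, were named after their values were seen, and 0 to 2 of this list rose when a library was left out, 0 without sham replicate 2. Aldoc, with the CPM given above, had a log2 fold change of -4.60 ± 0.79 (adjusted p = 0.00126), and Slc1a3 of -2.55 ± 0.46 (adjusted p = 0.00169). Ntsr2, a neurotensin receptor of astrocytes, had 12.4 and 8.95 CPM at day 7 and 342 and 270.2 CPM in sham (log2 fold change -4.85 ± 0.60, adjusted p = 0.000249). Slc6a11, a GABA transporter, had 1.81 and 1.5 CPM at day 7 and 39.6 and 43.9 CPM in sham (log2 fold change -4.67 ± 0.67, adjusted p = 0.000514). Gpc5, a glypican, had 2.96 and 2.48 CPM at day 7 and 73.4 and 58.2 CPM in sham (log2 fold change -4.60 ± 0.51, adjusted p = 0.000141). In all of these both day 7 libraries were below both sham libraries. Aldh1l1, a folate enzyme widely used to mark astrocytes, had 23.8 and 29.9 CPM at day 7 and 149 and 243 CPM in sham (log2 fold change -2.86 ± 0.85, adjusted p = 0.021), and its call ended without either day 7 library or without sham replicate 2, with adjusted p of up to 0.111. Aqp4, the water channel of endfeet, had 12.1 and 4.77 CPM at day 7 and 85 and 59.1 CPM in sham.

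Handling of glutamate, GABA and potassium gave 21 falls and 1 rise among 24, with a median log2 fold change of -3.54. The member that rose was Slc7a11, the cystine-glutamate exchanger, and 0 rose without sham replicate 2. Gria1 and Gria2, AMPA receptor subunits carried by neurons and glia, were low at day 7. Gria1 had 3.43 and 3.51 CPM at day 7 and 110.2 and 162 CPM in sham (log2 fold change -5.29 ± 0.83, adjusted p = 0.000768), and Gria2 had 3.36 and 2.77 CPM at day 7 and 101 and 122 CPM in sham (log2 fold change -5.19 ± 0.46, adjusted p = 5.08e-05). The GABA receptor subunits Gabrb1 and Gabbr2 lay in the same direction. Gabrb1 had 2.08 and 1.86 CPM at day 7 and 60.4 and 62.6 CPM in sham (log2 fold change -4.97 ± 0.74), and Gabbr2 had 5.78 and 3.69 CPM at day 7 and 98.9 and 165 CPM in sham (log2 fold change -4.81 ± 0.92, adjusted p = 0.000577 for Gabrb1 and 0.00217 for Gabbr2). Neuron markers moved with this list.

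Neuron markers gave 16 falls and 0 rises among 17, with a median log2 fold change of -5.16, and 16 of the 17 had both day 7 libraries below both sham libraries, against 36% of all genes. Thy1, a surface glycoprotein of neurons and of fibroblasts, was the member that did not pass. Snap25, a protein of synaptic vesicle fusion, had 25.1 and 17.7 CPM at day 7 and 1402 and 1138 CPM in sham (log2 fold change -5.89 ± 0.40, adjusted p = 3.07e-05). Syt1, the calcium sensor of vesicle release, had 4.57 and 3.28 CPM at day 7 and 224 and 189 CPM in sham (log2 fold change -5.73 ± 0.53, adjusted p = 6.17e-05). Rbfox3, the splicing factor known as NeuN, had 13.8 and 11.9 CPM at day 7 and 498 and 680.2 CPM in sham (log2 fold change -5.52 ± 0.81, adjusted p = 0.000537). Stmn2, a tubulin-binding protein of axons, had 4.03 and 3.13 CPM at day 7 and 191 and 155 CPM in sham, and Celf4, a neuronal RNA-binding protein, had 82.3 and 102 CPM at day 7 and 2987 and 5735 CPM in sham, with log2 fold changes of -5.60 ± 0.51 and -5.57 ± 1.19 (adjusted p = 5.85e-05 and 0.00408).

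Of 16 oligodendrocyte markers 5 fell and 2 rose, with a median log2 fold change of -1.81; the rises were Trf, transferrin, and Cldn11, a claudin of myelin that meningeal cells also make. The falls numbered 9 by DESeq2's Wald test and 10 with only the 4 libraries compared, and 1 rose without either day 7 library or without sham replicate 2. Mbp, myelin basic protein, had 771 and 447 CPM at day 7 and 9070.2 and 8610.0 CPM in sham (log2 fold change -3.86 ± 0.46, adjusted p = 0.000204). Mobp, another myelin protein, had 41.7 and 24.7 CPM at day 7 and 520.3 and 632 CPM in sham (log2 fold change -4.12 ± 0.44, adjusted p = 0.000128). Ermn, an oligodendrocyte cytoskeletal protein, had 2.55 and 0.93 CPM at day 7 and 34.3 and 26.3 CPM in sham (log2 fold change -4.17 ± 0.68, adjusted p = 0.000992). These 3 were lower in both day 7 libraries. Mog, a surface protein of myelin, had 1.81 and 0.763 CPM at day 7 and 10.8 and 3.94 CPM in sham and did not pass (adjusted p = 0.062).

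Precursor markers gave 3 falls and 2 rises among 11, near the shares over all genes, with a median log2 fold change of -1.49. Fewer fell without day 7 replicate 2 or without sham replicate 1, and more without day 7 replicate 1. The rises were Pdgfra and Cspg4, which fibroblasts and pericytes also express. Bcas1, a marker of newly forming oligodendrocytes, had 66.4 and 53 CPM at day 7 and 417 and 538 CPM in sham (log2 fold change -3.00 ± 0.43, adjusted p = 0.000521). Olig1, a transcription factor of the lineage, had 61.8 and 20.2 CPM at day 7 and 331 and 160.5 CPM in sham (log2 fold change -2.59 ± 0.71, adjusted p = 0.0144), and its call ended without day 7 replicate 2 or without sham replicate 1, with adjusted p of up to 0.0976. Its partner Olig2 had 9.61 and 2.73 CPM at day 7 and 24.1 and 13.5 CPM in sham and did not pass (adjusted p = 0.0781).

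Secreted factors that act on synapses went both ways, 8 of 20 up and 6 down, with a median log2 fold change of -0.90, and 10 were down with only the 4 libraries compared. The thrombospondins Thbs1 and Thbs2, which promote synapse formation and also occur in scar matrix, were among the rises. Thbs2 had 1095 and 1299 CPM at day 7 and 2.51 and 3.03 CPM in sham (log2 fold change 8.75 ± 0.69, adjusted p = 3.91e-05), and Thbs1 had 277 and 241 CPM at day 7 and 3.17 and 4.13 CPM in sham (log2 fold change 6.14 ± 0.63, adjusted p = 9.57e-05). Megf10, a receptor by which astrocytes remove synapses, had 64.3 and 63 CPM at day 7 and 2.63 and 3.19 CPM in sham (log2 fold change 4.44 ± 0.49, adjusted p = 0.000137). Wnt7a, a ligand for brain endothelium, fell, with 0.47 and 0.214 CPM at day 7 and 12.6 and 7.75 CPM in sham (log2 fold change -4.99 ± 0.81, adjusted p = 0.000954).

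Neural stem cell and Notch genes gave 5 rises and 6 falls among 22, near the shares over all genes, with a median log2 fold change of -0.64. Hes5, a Notch target, had 1.28 and 0.335 CPM at day 7 and 63.8 and 37.5 CPM in sham (log2 fold change -6.11 ± 0.83, adjusted p = 0.00038), while Notch2, a receptor, rose, with 112 and 109.6 CPM at day 7 and 3.7 and 6.35 CPM in sham (log2 fold change 4.45 ± 0.40, adjusted p = 5.58e-05). The neural transcription factors Sox2 and Pax6 fell. Sox2 had 6.85 and 2.46 CPM at day 7 and 124 and 64.3 CPM in sham (log2 fold change -4.36 ± 0.67), and Pax6 had 1.41 and 0.623 CPM at day 7 and 16.4 and 17.2 CPM in sham (log2 fold change -4.10 ± 0.76, adjusted p = 0.000719 for Sox2 and 0.00186 for Pax6).

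Of 29 axon guidance ligands and receptors 15 rose and 4 fell, with a median log2 fold change of 1.34, and 8 rose without day 7 replicate 1 or without sham replicate 1. The falls numbered 1 without day 7 replicate 1 and 2 without day 7 replicate 2 or without sham replicate 2. Nrp1, a receptor for semaphorins and VEGF, had 595 and 613 CPM at day 7 and 32.1 and 38.5 CPM in sham (log2 fold change 4.10 ± 0.34, adjusted p = 4.28e-05). Sema3a, a repulsive ligand of that receptor known from scar fibroblasts, had 30.1 and 33.2 CPM at day 7 and 2.75 and 2.4 CPM in sham (log2 fold change 3.62 ± 0.45, adjusted p = 0.000249). Robo1, the receptor for Slit, had 76.2 and 77 CPM at day 7 and 6.27 and 5.03 CPM in sham, and Efnb1, an ephrin, had 137 and 108 CPM at day 7 and 13.4 and 8.98 CPM in sham, with log2 fold changes of 3.76 ± 0.35 and 3.45 ± 0.43 (adjusted p = 6.45e-05 and 0.000241).

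Retinoid handling gave 9 rises and 4 falls among 14 (1 fall without day 7 replicate 2 and 2 without day 7 replicate 1), with a median log2 fold change of 2.39. Aldh1a2, the enzyme that makes retinoic acid in meninges, had 114 and 171 CPM at day 7 and 3.76 and 4.46 CPM in sham (log2 fold change 5.11 ± 0.44, adjusted p = 4.59e-05). Crabp2, which carries retinoic acid to the nucleus, had 20.8 and 31.7 CPM at day 7 and 2.27 and 1.19 CPM in sham, and Rdh10, which oxidises retinol, had 66 and 60.5 CPM at day 7 and 6.69 and 5.45 CPM in sham, with log2 fold changes of 3.96 ± 0.51 and 3.38 ± 0.48 (adjusted p = 0.000307 and 0.000458). Rxrg, a retinoid X receptor, fell, with 3.76 and 5.59 CPM at day 7 and 73.9 and 90.8 CPM in sham (log2 fold change -4.13 ± 0.71, adjusted p = 0.00128).

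**Figure D3:**
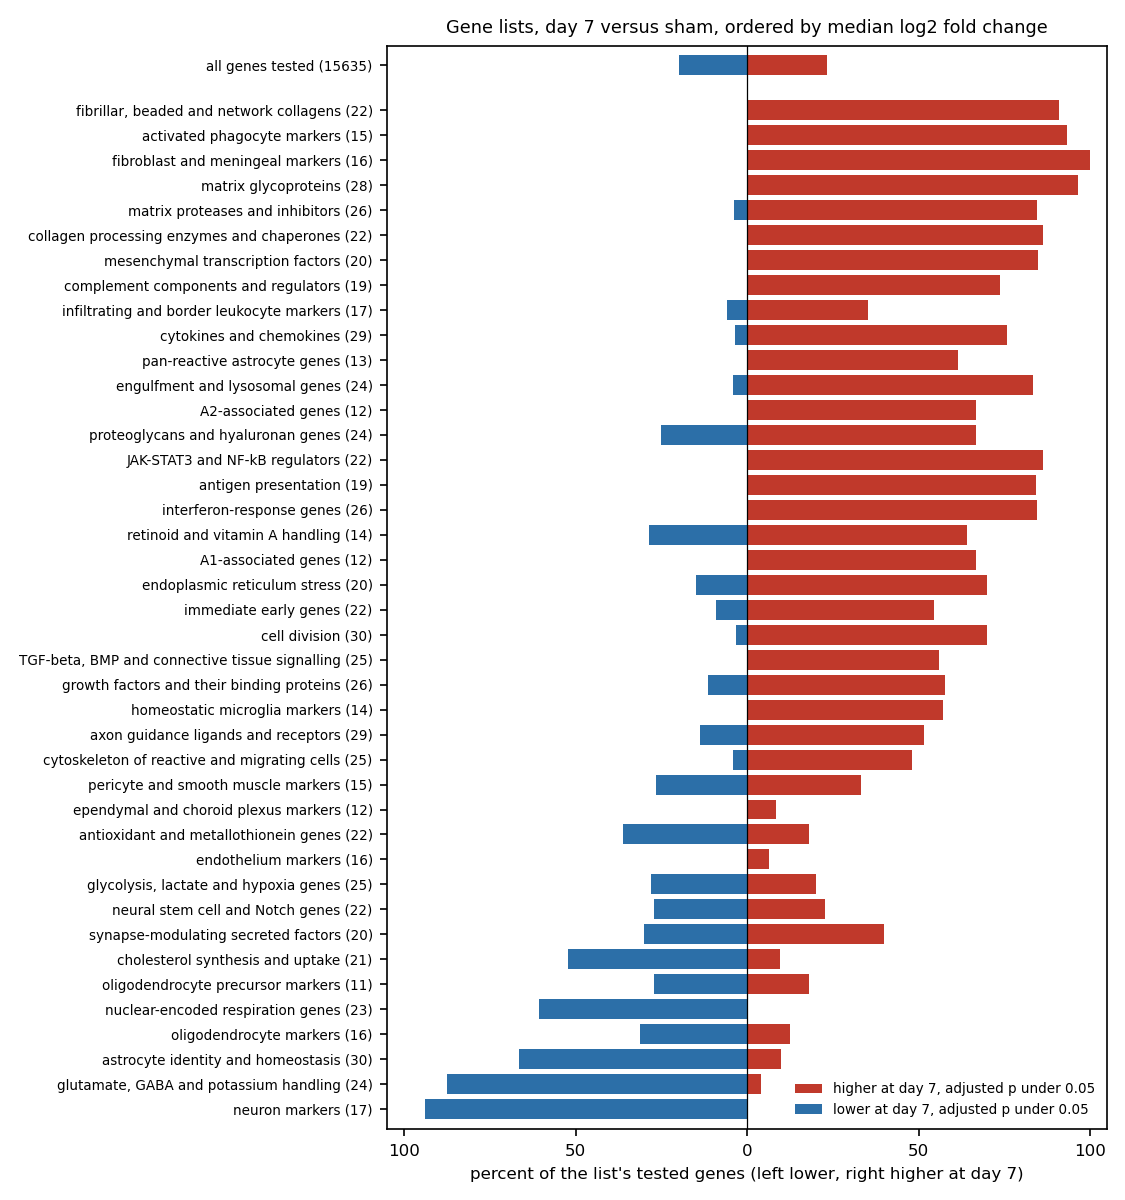
Percent of the tested members of each gene list that passed the edgeR test, bars to the left for lower and to the right for higher at day 7 than in sham, with lists ordered by their median log2 fold change, the number of tested members in parentheses and all 15635 genes on top. Collagens, phagocyte and fibroblast markers stand highest, with medians of 8.59, 7.60 and 7.00, and neuron markers lowest, with a median of -5.16.

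Of 23 nuclear-encoded respiration genes 14 fell and 0 rose, with a median log2 fold change of -1.68. The subunits of cytochrome c oxidase, the last enzyme of the respiratory chain, led the falls. Cox6c had 35.1 and 29.7 CPM at day 7 and 898 and 752 CPM in sham (log2 fold change -4.67 ± 0.58, adjusted p = 0.000254), and Cox5b had 7.66 and 9.58 CPM at day 7 and 141 and 213 CPM in sham (log2 fold change -4.36 ± 0.67, adjusted p = 0.000718). Cox7a2 had 24.4 and 26.5 CPM at day 7 and 346 and 435 CPM in sham, and Cox4i1 had 228 and 239 CPM at day 7 and 2599 and 2536 CPM in sham, with log2 fold changes of -3.94 ± 0.50 and -3.46 ± 0.62 (adjusted p = 0.000274 and 0.00159). In these 4 subunits the day 7 libraries were close to each other and below sham. Exons of Cox6c and Cox4i1 overlap coding genes on the other strand.

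Glycolysis, lactate and hypoxia genes showed 5 rises and 7 falls among 25 and a median log2 fold change of -0.62, and both counts are near the shares over all genes. The falls numbered 1 without day 7 replicate 2, 2 without day 7 replicate 1, 4 without sham replicate 1 and 2 without sham replicate 2, when the median was 0.10. Slc16a3, a lactate exporter, had 38.4 and 25.6 CPM at day 7 and 2.69 and 1.01 CPM in sham (log2 fold change 4.16 ± 0.61, adjusted p = 0.000536). Hk2, an inducible hexokinase, had 20.2 and 7.7 CPM at day 7 and 1.61 and 1.34 CPM in sham, and Pfkfb3, an activator of glycolysis, had 77.7 and 72.9 CPM at day 7 and 9.68 and 9.93 CPM in sham, with log2 fold changes of 3.24 ± 0.64 and 2.94 ± 0.43 (adjusted p = 0.00263 and 0.000547). Pfkm, the muscle-type phosphofructokinase, fell, with 41.6 and 68.4 CPM at day 7 and 257 and 443 CPM in sham (log2 fold change -2.67 ± 0.80, adjusted p = 0.0222), but not without either day 7 library or without sham replicate 2, when adjusted p reached 0.128.

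Cholesterol synthesis and uptake, which astrocytes carry out for neurons, gave 11 falls and 2 rises among 21, with a median log2 fold change of -1.31, and 7 falls without day 7 replicate 2. The rises numbered 1 without day 7 replicate 1 or without either sham library. Srebf2, the transcription factor of the pathway, had 72.5 and 63.6 CPM at day 7 and 315 and 372 CPM in sham (log2 fold change -2.34 ± 0.45, adjusted p = 0.00243). Sqle, squalene epoxidase, had 12.8 and 10.7 CPM at day 7 and 39.7 and 50.2 CPM in sham (log2 fold change -1.94 ± 0.32, adjusted p = 0.00107). In both genes the groups were apart. The calls of Idi1, an isomerase of the pathway, and of Fdft1, squalene synthase, rested on single libraries. Idi1 had 2.22 and 3.28 CPM at day 7 and 15.3 and 32 CPM in sham (log2 fold change -3.09 ± 0.85, adjusted p = 0.0148), and its adjusted p rose to as much as 0.0908 without either day 7 library or without sham replicate 2. Fdft1, whose exons overlap Ctsb on the other strand, had 10.1 and 24 CPM at day 7 and 76 and 86.1 CPM in sham (log2 fold change -2.24 ± 0.56, adjusted p = 0.00868), and adjusted p = 0.0663 without day 7 replicate 1.

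Among 22 antioxidant and metallothionein genes 8 fell and 4 rose, with a median log2 fold change of -0.27. The metallothioneins, which bind zinc and copper, were far lower at day 7. Mt3, the brain form, had 8.06 and 4.51 CPM at day 7 and 451 and 772 CPM in sham (log2 fold change -6.61 ± 0.94, adjusted p = 0.000481). Mt1 had 32 and 31.7 CPM at day 7 and 764 and 959 CPM in sham, and Mt2 had 5.64 and 9.59 CPM at day 7 and 102 and 257 CPM in sham, with log2 fold changes of -4.76 ± 0.50 and -4.55 ± 0.59 (adjusted p = 0.000108 and 0.000305). Hmox1, heme oxygenase of cells that take up blood, rose, with 119.9 and 91.2 CPM at day 7 and 4.06 and 3.6 CPM in sham (log2 fold change 4.79 ± 0.37, adjusted p = 3.91e-05).

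Genes of the endoplasmic reticulum gave 14 rises and 3 falls among 20, with a median log2 fold change of 2.31. The members with high levels are chaperones of secreted proteins. Hspa5, the chaperone BiP, had 2092 and 2374 CPM at day 7 and 187 and 176 CPM in sham (log2 fold change 3.62 ± 0.40, adjusted p = 0.000141). Pdia4, a disulfide isomerase, had 484 and 536 CPM at day 7 and 48 and 40.4 CPM in sham, and Pdia3, another isomerase whose exons overlap Catsper2 on the other strand, had 1389.7 and 2219 CPM at day 7 and 142 and 202 CPM in sham, with log2 fold changes of 3.53 ± 0.39 and 3.39 ± 0.48 (adjusted p = 0.000149 and 0.000493). Atf3, a stress transcription factor, had 152 and 68.5 CPM at day 7 and 6.75 and 5.64 CPM in sham (log2 fold change 4.16 ± 0.93, adjusted p = 0.00498). The 3 members that fell were Chac1, Ddit3 and Asns.

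Immediate early genes, which respond within minutes to stimuli and to tissue dissociation, gave 12 rises and 2 falls among 22, with a median log2 fold change of 2.27, and 0 fell without either day 7 library or without sham replicate 2. Fos, the partner of Jun in AP-1, had 2386 and 1572 CPM at day 7 and 83.9 and 76.3 CPM in sham (log2 fold change 4.63 ± 0.67, adjusted p = 0.000526). Fosb, a member of the same family, had 99.9 and 45.5 CPM at day 7 and 1.85 and 0.51 CPM in sham (log2 fold change 6.03 ± 1.35, adjusted p = 0.00521). Junb had 1664 and 961 CPM at day 7 and 116 and 78.2 CPM in sham (log2 fold change 3.76 ± 0.69, adjusted p = 0.00176), with exons of Prdx2 on the other strand. Egr3, a factor induced by neuronal activity, fell, with 2.02 and 2.88 CPM at day 7 and 19.3 and 45.1 CPM in sham (log2 fold change -3.70 ± 1.20, adjusted p = 0.0304), and its call ended without either day 7 library or without sham replicate 2, with adjusted p of up to 0.141.

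Cell division genes gave 21 rises and 1 fall among 30, with a median log2 fold change of 2.07, and 13 rises without sham replicate 1. Ccnb2, a mitotic cyclin, had 17.5 and 22.4 CPM at day 7 and 2.27 and 1.2 CPM in sham (log2 fold change 3.55 ± 0.53, adjusted p = 0.000613). Cdk1, the kinase it activates, had 24.4 and 27.3 CPM at day 7 and 1.49 and 3.26 CPM in sham (log2 fold change 3.42 ± 0.73, adjusted p = 0.00398). Bub1b, a spindle checkpoint kinase, had 20.2 and 20.2 CPM at day 7 and 1.85 and 1.98 CPM in sham, and Mki67, a protein of cycling nuclei, had 25.7 and 15.8 CPM at day 7 and 1.97 and 3.72 CPM in sham, with log2 fold changes of 3.39 ± 0.62 and 2.85 ± 0.58 (adjusted p = 0.00182 and 0.00304). The day 7 libraries were above sham in all 4. The member that fell was Ccnd1, a cyclin of early G1, and 0 fell without either day 7 library or without sham replicate 1.

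Outside the lists, the largest rises over sham were of genes at 0 in both sham libraries, so each fold is a lower bound at a floor of 3 counts per library. Nox4, an oxidase of fibroblasts and vessels that makes hydrogen peroxide, had 42.4 and 58 CPM at day 7 and was at least 482-fold higher (adjusted p = 0.000441). Ssc5d, a secreted scavenger-receptor protein, had 47.8 and 48.2 CPM at day 7 and was at least 461-fold higher (adjusted p = 9.68e-05). Siglec1, the sialic acid receptor CD169 of macrophages, had 42.7 and 25.3 CPM at day 7 and was at least 327-fold higher (adjusted p = 0.000256). In all 3 both day 7 libraries were far from sham. Fbxo40, an F-box protein known from muscle, reached 39.4 and 32.4 CPM at day 7 and was at least 345-fold higher, and Art4, an ADP-ribosyltransferase, reached 35.6 and 23.3 CPM, a lower bound of 283-fold (adjusted p = 0.000598 and 0.00035). Mcoln3, an endolysosomal cation channel, reached 22.2 and 21.1 CPM and was at least 208-fold higher, and Hsd11b2, which inactivates corticosterone, reached 18.5 and 23.3 CPM and was at least 201-fold higher (adjusted p = 0.000298 and 0.000465). The kininogens Kng1 and Kng2, precursors of bradykinin that are near-identical copies whose reads the counting may split, had 20.2 and 40.1 CPM and 15 and 34.9 CPM at day 7 and were at least 289-fold and 240.0-fold higher (adjusted p = 0.000909 and 0.000868).

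The 12 largest falls covered genes of varied roles. Alas2, the heme enzyme of red cell precursors, had 1.07 and 2.01 CPM at day 7 and 244 and 291 CPM in sham (log2 fold change -7.40 ± 0.86, adjusted p = 0.000181), with exons of Apex2 on the other strand. Acta1, skeletal muscle actin, had 0.202 and 0 CPM at day 7, which is 3 counts, and 30.1 and 21.5 CPM in sham; the ratio of day 7 to sham was 0.00108 with an exact 95% counting interval of 0.000223 to 0.00316 (adjusted p = 0.00263). Mei1, a meiosis gene, had 0.134 and 0.0372 CPM at day 7 and 8.12 and 22.6 CPM in sham (log2 fold change -7.90 ± 1.74, adjusted p = 0.00463, or 0.054 without day 7 replicate 2). Gng13, a G protein subunit, had 0.269 and 0.828 CPM at day 7 and 87 and 116 CPM in sham (log2 fold change -7.39 ± 1.09, adjusted p = 0.000576), with exons of Chtf18 on the other strand.

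The other 8 genes of these 12 were below 1 CPM in both day 7 libraries. Lamp5, a membrane protein of a class of cortical interneurons, had 0.605 and 0.335 CPM at day 7 and 71.7 and 55.6 CPM in sham (log2 fold change -7.18 ± 0.58, adjusted p = 4e-05). Grin2b, an NMDA receptor subunit, had 0.269 and 0.149 CPM at day 7 and 27.4 and 15.1 CPM in sham (log2 fold change -6.78 ± 1.04, adjusted p = 0.000694). Cbln2, a synaptic organiser, had 0.134 and 0.0465 CPM at day 7 and 15.2 and 6.03 CPM in sham (log2 fold change -7.15 ± 1.21, adjusted p = 0.00118). Otof, a vesicle-fusion protein known from the hair cells of the ear, had 0 and 0.149 CPM at day 7 and 9.68 and 16.8 CPM in sham (log2 fold change -7.00 ± 1.12, adjusted p = 0.000868). Rgs17, a regulator of G protein signalling, had 0.672 and 0.0837 CPM at day 7 and 38.3 and 27.1 CPM in sham (log2 fold change -6.75 ± 1.16). Ctxn2, a small membrane protein, had 0.202 and 0.112 CPM at day 7 and 22.5 and 13 CPM in sham, Kirrel2, an adhesion protein, had 0.403 and 0.112 CPM at day 7 and 18.5 and 25 CPM in sham, and Zmat4, a zinc-finger protein, had 0.202 and 0.0651 CPM at day 7 and 12.2 and 16.1 CPM in sham, with log2 fold changes of -6.95 ± 1.04, -6.67 ± 1.03 and -7.00 ± 1.28.

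Day 7 was also set against its neighbours in time, which use the same day 7 libraries as the comparison with sham. Against day 3, 479 genes were higher at day 7, 3.06% of those tested, and 504 were lower, 3.22%. These calls were far less firm than those against sham: with only the 4 libraries of day 7 and day 3 in the fit 0 passed, though 3243 had an unadjusted p under 0.05, and DESeq2's Wald test called 2618. Without day 7 replicate 1 the edgeR count was 1, without day 7 replicate 2 it was 0, with 2494 at an unadjusted p under 0.05, and without day 3 replicate 1 or replicate 2 it was 139 or 592. With plain library totals the median of all genes moved down by 0.52 (log2) and 15.3% of 1671 calls were rises, in place of 48.7%. Against day 21, 31 genes were higher at day 7, 0.198%, and 38 were lower, 0.243%, with 2 to 6 calls when a library was left out.

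Most collagens and most matrix glycoproteins were higher at day 7 than at day 3. Of 22 collagens 16 were higher and 0 lower, with a median log2 fold change of 3.77, and of 28 matrix glycoproteins 17 were higher and 0 lower, with a median of 2.33. Collagen processing genes gave 8 of 22 higher and mesenchymal transcription factors 7 of 20, with 0 lower in both. Col8a1, a short-chain collagen of vessel walls, had 1606 and 1168 CPM at day 7 and 48.9 and 71.2 CPM at day 3 (log2 fold change 4.53 ± 0.46, adjusted p = 0.00788). Its partner chain Col8a2 had 424 and 263 CPM at day 7 and 4.11 and 13.9 CPM at day 3 (log2 fold change 5.24 ± 0.68, adjusted p = 0.00994). The sham libraries of these 2 genes were lower again, at 4.6 and 5.13 CPM for Col8a1 and 1.25 and 2.47 CPM for Col8a2. Phex, an endopeptidase of bone cells, had 54.3 and 47.4 CPM at day 7 and 0 and 0.859 CPM at day 3 (log2 fold change 6.63 ± 1.09, adjusted p = 0.0133). Prss35, a serine protease, had 28.3 and 16.5 CPM at day 7 and 0 and 0.904 CPM at day 3, and Epha3, an ephrin receptor of mesenchyme, had 87.5 and 89 CPM at day 7 and 0.38 and 7.22 CPM at day 3, with log2 fold changes of 5.44 ± 1.25 and 4.49 ± 1.01 (adjusted p = 0.0342 and 0.0319). Each of these 5 calls ended without either day 7 library.

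Part of the cell division and antioxidant genes were lower at day 7 than at day 3. Of 30 cell division genes 9 were lower and 0 higher, with a median log2 fold change of -1.60, and of 22 antioxidant and metallothionein genes 12 were lower and 0 higher, with a median of -1.49. Cytokines gave 6 lower and 1 higher of 29, respiration genes 7 lower of 23, astrocyte identity genes 6 lower of 30 and neuron markers 5 lower of 17. Among the 15 activated phagocyte markers 0 were called between day 7 and day 3. Arg1, the arginase of repair macrophages, had 1.01 and 2.63 CPM at day 7 and 121 and 108 CPM at day 3 (log2 fold change -5.93 ± 1.33, adjusted p = 0.0319). The neutrophil genes were lower as well: S100a8 had 0.873 and 0.605 CPM at day 7 and 34.7 and 40.1 CPM at day 3 (log2 fold change -5.69 ± 0.95, adjusted p = 0.0136); S100a9 had 0.537 and 0.846 CPM at day 7 and 30.8 and 38 CPM at day 3 (log2 fold change -5.59 ± 0.90, adjusted p = 0.0127). Crabp1, which binds retinoic acid in the cytoplasm, had 0.269 and 0.0558 CPM at day 7 and 31.1 and 32.3 CPM at day 3 (log2 fold change -8.09 ± 0.78, adjusted p = 0.00788). Msln, a surface protein of mesothelium, had 0.537 and 0.642 CPM at day 7 and 28.2 and 19.1 CPM at day 3, and Fabp7, the fatty acid carrier of radial glia and astrocytes, had 12.8 and 9.44 CPM at day 7 and 219 and 632 CPM at day 3, with log2 fold changes of -5.30 ± 0.63 and -5.26 ± 0.90 (adjusted p = 0.00985 and 0.0142). Each of these 6 calls ended without day 7 replicate 2.

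Against day 21, secreted proteins of matrix and bone were among the genes higher at day 7. Spp1 had 29070.5 and 28423 CPM at day 7 and 2027 and 1982 CPM at day 21 (log2 fold change 3.84 ± 0.51, adjusted p = 0.0169). Aspn, asporin, a proteoglycan of cartilage whose exons overlap Cenpp on the other strand, had 51 and 60.7 CPM at day 7 and 4.48 and 4.07 CPM at day 21 (log2 fold change 3.71 ± 0.37, adjusted p = 0.00383). Igfbp3, a carrier of insulin-like growth factors, had 131 and 93.7 CPM at day 7 and 11.9 and 8.3 CPM at day 21. Tnc, tenascin C of wound matrix, had 61.5 and 78.7 CPM at day 7 and 6.95 and 6.24 CPM at day 21, and Col26a1, a short collagen-like chain, had 373 and 357 CPM at day 7 and 33 and 37.2 CPM at day 21. These last 3 had log2 fold changes of 3.47 ± 0.58 for Igfbp3, 3.41 ± 0.58 for Tnc and 3.38 ± 0.52 for Col26a1 (adjusted p = 0.0442, 0.0442 and 0.0309), and their calls ended with plain library totals. Gal, the neuropeptide galanin, was above 1 CPM at no time other than day 7, where it had 36.3 and 47.2 CPM, against 0.056 and 0 CPM at day 21 and 0.127 and 0.621 CPM at day 3. The day 21 value rests on 1 count, and the ratio of day 7 to day 21 was 5944 with an exact 95% counting interval of 1066 to 234830.0 (adjusted p = 0.021), while against day 3 the log2 fold change was 6.63 ± 1.14 (adjusted p = 0.0174). All 6 calls against day 21 ended when any single library of day 7 or day 21 was left out.

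The 6 genes furthest below their day 21 level at day 7 encode secreted proteins. None of them lay below sham in both day 7 libraries. Cxcl5, at 0.478 and 0.212 CPM in sham, and Lcn2, at 4.3 and 5.51 CPM in sham, overlapped between day 7 and sham. For Saa3, Prok2, C3 and Cxcl13 both day 7 libraries lay above both sham libraries. Cxcl5, a neutrophil chemokine, had 0.202 and 0.353 CPM at day 7 and 486 and 358 CPM at day 21 (log2 fold change -10.45 ± 0.70, adjusted p = 0.000428). Lcn2, lipocalin 2, an iron-siderophore binder of reactive astrocytes, had 4.97 and 7.36 CPM at day 7 and 1344 and 2113 CPM at day 21 (log2 fold change -8.13 ± 0.58, adjusted p = 0.000428). Cxcl5 and Lcn2 passed whichever library was left out, with adjusted p of up to 0.0297 and 0.0339. Saa3, serum amyloid A of injured tissue, had 2.35 and 3.22 CPM at day 7 and 414 and 666 CPM at day 21 (log2 fold change -7.59 ± 0.77, adjusted p = 0.00383). Prok2, a chemotactic peptide, had 0.336 and 0.316 CPM at day 7 and 44.2 and 31.8 CPM at day 21 (log2 fold change -6.87 ± 0.63, adjusted p = 0.00323). The calls of Saa3 and Prok2 ended without either day 7 library. C3 had 3611 and 6280.0 CPM at day 21, against which the day 7 log2 fold change was -7.26 ± 1.17, and Cxcl13 had 358 and 294 CPM at day 21, with a log2 fold change of -4.93 ± 0.69 (adjusted p = 0.0363 for C3 and 0.021 for Cxcl13). The calls of C3 and Cxcl13 ended when any single library of day 7 or day 21 was left out.

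The 6 genes below, named in the comparison with sham, passed the test against both day 3 and day 21 as well. Col6a3 had 25.9 and 56.3 CPM at day 3, 649.7 and 770.0 CPM at day 7 and 75.1 and 93.2 CPM at day 21, and Cspg4 had 37.8 and 22.5 CPM at day 3, 105 and 69.4 CPM at day 7 and 17 and 14.6 CPM at day 21. Both were higher at day 7 than at the times on either side. Ccnb2 had 51.6 and 98.4 CPM at day 3, 17.5 and 22.4 CPM at day 7 and 2.07 and 3.03 CPM at day 21, and Serping1 had 229 and 473 CPM at day 3, 1093 and 1361 CPM at day 7 and 6869 and 7500.1 CPM at day 21. Day 7 lay between its neighbours in both, with Ccnb2 higher at day 3 and Serping1 higher at day 21. Lamp5 had 3.42 and 7.02 CPM at day 3, 0.605 and 0.335 CPM at day 7 and 3.81 and 2.89 CPM at day 21, and Snap25 had 105 and 136 CPM at day 3, 25.1 and 17.7 CPM at day 7 and 112 and 97.6 CPM at day 21, so both neuronal genes were lowest at day 7 of these 3 times. Each of these calls, against day 3 and against day 21, ended without either day 7 library. The calls against day 21 also ended without either day 21 library. Against day 3, those of Ccnb2 and Cspg4 also ended without either day 3 library, and that of Serping1 without day 3 replicate 1.

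**Figure D4:**
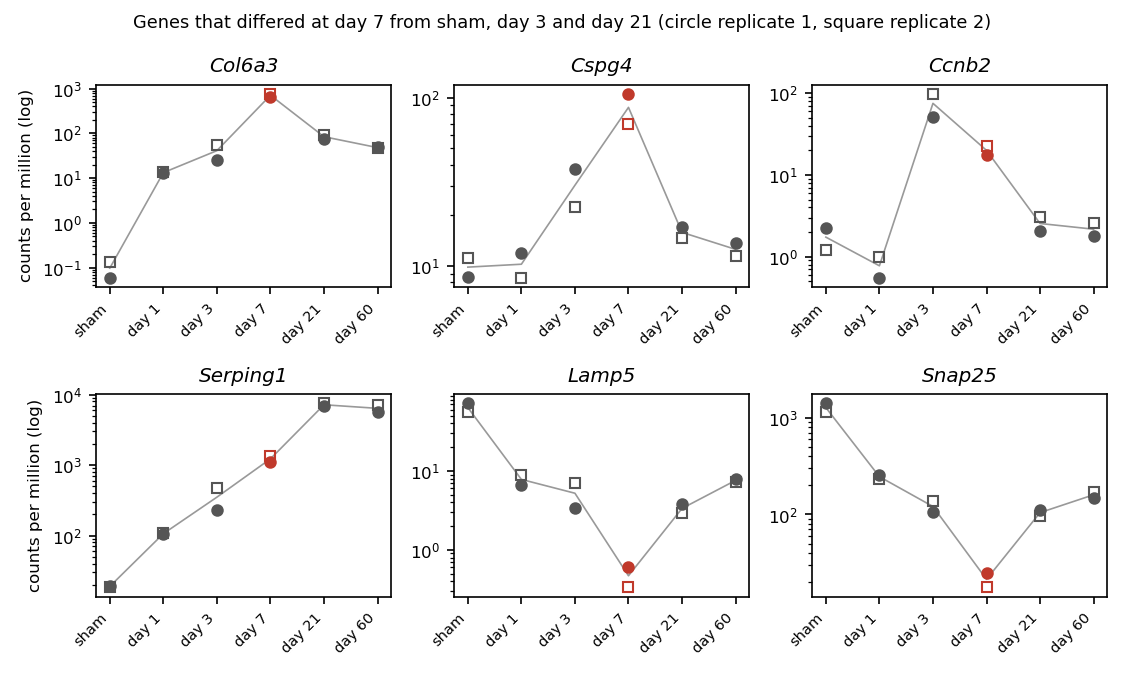
CPM, on a log axis, of the 6 genes that differed from sham, day 3 and day 21, with a circle for replicate 1 and a square for replicate 2 at sham and at days 1, 3, 7, 21 and 60, day 7 in red and a line through the group means. Col6a3, at 649.7 and 770.0 CPM, and Cspg4, at 105 and 69.4 CPM, peak at day 7, and Lamp5, at 0.605 and 0.335 CPM, and Snap25, at 25.1 and 17.7 CPM, are lowest there.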

How the data were processed

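The 12 libraries were grouped by their labels into sham and days 1, 3, 7, 21 and 60 after stroke, 2 in each. The files hold raw counts per gene symbol as deposited by the authors, made from reads with Bowtie2 2.3.4.2 and HTSeq 0.6.1 on mm10 per the submitters' processing notes. The annotation, the strand setting and the treatment of multiply mapped reads are not given in the sources used here. The table of the whole study and the files of single libraries held the same values in 189288 of 189288 cases.

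The deposited counts were tested with edgeR 4.0.16 in R 4.3.3. Filtering with filterByExpr at a minimum count of 10 left 15635 of 15774 genes. A quasi-likelihood fit over all 12 libraries gave contrasts of day 7 with sham, day 3 and day 21, with 6 residual degrees of freedom, a median biological coefficient of variation of 0.408 and Benjamini-Hochberg adjustment within each contrast. Standard errors were taken as the absolute log2 fold change over the root of the F statistic. The floor for a gene at 0 was 3 counts per library, a mean of 0.115 CPM at day 7 and 0.104 CPM in sham. Counting intervals are exact 95% intervals, and intervals and floors cover counting error only. The code was tested on simulated data.

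The comparison, its 41 gene lists and the rule for naming genes were chosen with earlier results of these data known. The rule names the 12 largest rises and 12 largest falls against sham and the 6 and 6 largest against day 3 and day 21, among called genes with at least 10 CPM in the higher group and no overlap between groups, up to 4 members of each list (a few of these are not reported here), or its 4 most abundant members if fewer than 2 passed, and the defining markers. Other genes, such as Gapdh and list members named for not passing or for moving against their list, were named after their values were seen. List symbols Has3, Csf2, C1s, Cfd, Sc4mol, Tcf21 and Meox2 were not analysed here. Positions and overlaps come from GENCODE vM21 on GRCm38, by which 212 of 214 named genes had a position. Exons of 16 named genes overlap a coding gene on the other strand and exons of 2 overlap one on the same strand, so their reads may be shared; beyond those stated with the values, these are Eng, Ermn, Fbn1, Gabrb1, Ltbp3, P2ry12 and Pfkm. Promoters come from RefSeq on GRCm38.p6.

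Alternatives were DESeq2 1.42.0 size factors and its Wald test, plain library totals, limma 3.58.1 with voom, no filter or at least 1 CPM in 2 libraries, a fit of only the 4 libraries compared, replicate 2 thinned to the depth of replicate 1, the replicate number as a block, and leaving out each library.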

Additional observations from a re-analysis of the deposited data

Results flagged for a closer look

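Of 195 genes named in the comparison with sham, 60 also differed between day 7 and day 3, 10 between day 7 and day 21, and 6 between day 7 and both, all by the edgeR quasi-likelihood test of the difference itself with Benjamini-Hochberg adjustment. These 6 were picked out because their level at day 7 differed from that of each neighbouring time. Log2 fold changes are of day 7 over the other time. Col6a3 had 4.11 against day 3 (adjusted p = 0.00811) and 3.08 against day 21 (adjusted p = 0.0210), and Cspg4 had 1.54 against day 3 (adjusted p = 0.0430) and 2.47 against day 21 (adjusted p = 0.0363). Serping1 had 1.81 against day 3 (adjusted p = 0.0359) and -2.55 against day 21 (adjusted p = 0.0442), and Ccnb2 had -1.91 against day 3 (adjusted p = 0.0478) and 2.96 against day 21 (adjusted p = 0.0442). Lamp5 had -3.58 against day 3 (adjusted p = 0.0112) and -2.92 against day 21 (adjusted p = 0.0442), and Snap25 had -2.50 against day 3 (adjusted p = 0.0102) and -2.29 against day 21 (adjusted p = 0.0277). Every one of the day 21 values lost its call when any single library of day 7 or day 21 was left out, with adjusted p of up to 0.375, and every one of the day 3 values lost it without either day 7 library. The day 3 calls of Ccnb2 and Cspg4 also ended without either day 3 library, and that of Serping1 without day 3 replicate 1. With 2 libraries a group, no single library could be tested as an outlier within its group.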

How the results depend on the processing

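Against sham, 13 alternatives gave 4476 to 8459 calls in place of 6719. The number fell by more than 1.5 times without day 7 replicate 2, to 4476, and leaving out each of the 4 libraries in turn gave 4476 to 5068. Of 195 genes named against sham 0 changed direction and 21 moved across the threshold under at least 1 alternative. The median of the glycolysis, lactate and hypoxia list was 0.10 without sham replicate 2 and -0.86 without day 7 replicate 2, in place of -0.62; the cause was not tested. Against day 3, in place of 983, calls numbered 1671 with plain library totals, 2618 by DESeq2's Wald test and 1535 by limma-voom. By edgeR with only the 4 libraries compared they numbered 0 (3243 at an unadjusted p under 0.05). The cause of this drop was not tested. Calls against day 3 numbered 0 to 592 when a library was left out. Against day 21, in place of 69, they numbered 40 with plain library totals, with 15% rises in place of 44.9%, 1047 by DESeq2's Wald test, 287 by limma-voom, 350 with only the 4 libraries compared, and 2 to 6 when a library was left out. Medians of several lists against day 3 and day 21 change sign with plain library totals. With 2 numbers in each group, the replicate number is not shown to pair libraries: deviations of same-numbered libraries correlated at 0.319 to 0.713 in 15 of 15 pairs of groups, but the number also goes with depth. Adding the replicate number as a block to the fit called 8459 genes against sham, 2853 against day 3 and 635 against day 21. With the block 2 of 16 endothelial markers fell and 2 rose against sham, with adjusted p = 0.0123 for Cldn5, 0.0275 for Cdh5 and 0.00883 for Ly6c1. Depth limits low genes most in replicate 1, where 1 count is worth more CPM.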

Other observations

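A set of genes of bone and osteoclasts, assembled after Spp1, Mmp13 and Phex had been seen among the rises, stood higher at day 7. Of 12 such genes 9 rose against sham and 0 fell, with a median log2 fold change of 5.29, while 23.2% of all genes rose. Spp1, Mmp13 and Phex are themselves members, so this count and median were in part fixed in advance. The 12 genes took 2.87% and 2.14% of counts at day 7 against 0.0301% and 0.0272% in sham. Most of that share was Spp1, which alone took 2.64% and 1.96% of counts at day 7 and 0.00258% and 0.00117% in sham. Ctsk, the collagen-degrading cathepsin of osteoclasts, had 337 and 439 CPM at day 7 and 3.88 and 2.16 CPM in sham. Acp5, their tartrate-resistant phosphatase, had 78.5 and 68.1 CPM at day 7 and 0.836 and 1.64 CPM in sham. Atp6v0d2, a proton pump subunit of osteoclasts and macrophages, had 118 and 77.6 CPM at day 7 and 0 and 0.0192 CPM in sham. Ank, a transporter that controls mineral deposition, had 750.3 and 637 CPM at day 7 and 181 and 192 CPM in sham. The part of other cell types in these values was not tested.

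Genes of the cytosolic ribosome, also chosen after values were seen, were lower at day 7. Of 71 tested 56 fell against sham and 0 rose, with a median log2 fold change of -2.59, and they took 0.140% and 0.130% of counts at day 7 against 0.582% and 0.642% in sham. Against day 3, 32 of the 71 were lower at day 7 and 0 higher, with a median of -2.40, and against day 21 none was called (0 of 71), with a median of 0.12.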
